A study of Mus with 2 samples.

Results

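The replication-dependent histone genes were taken as every feature of the deposited count matrices whose symbol starts with Hist1h, Hist2h, Hist3h or Hist4h. This gave 69 of 28693 features under 68 symbols, because Hist2h2bb names 2 features. They comprised 6 features for the linker histone H1, 19 for H2A, 19 for H2B, 12 for H3 and 13 for H4. The cells came from newborn mouse kidneys (postnatal day 0) in 2 single-cell libraries, called library 1 and library 2 here, both of the genotype Rbpj c/- ; Foxd1cre/+. In that genotype Cre is made from the Foxd1 locus, which is active in the progenitors of the renal stroma, and acts on a conditional allele of Rbpj, the DNA-binding partner of the Notch receptors. The other Rbpj allele is written as null, which all cells would carry. Control kidneys were not analysed here, so the comparisons below are between cells of these mutant kidneys and none of them measures an effect of Rbpj. The labels do not say whether the libraries came from separate animals. Each p-value measures only how these 2 libraries disagree between types and states after their common shift is removed, which may be technical.

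Histone proteins package DNA into nucleosomes, and a cell that copies its genome has to make a matching amount of them. The replication-dependent genes supply that demand during S phase. They lie in clusters, lack introns, and give an mRNA that ends in a stem-loop bound by SLBP rather than in a poly(A) tail, and this mRNA is degraded when replication stops. Some of these genes also give polyadenylated transcripts in cells that have left the cycle. In the newborn mouse kidney the nephron progenitors still divide and give rise to new nephrons, while podocytes at the filter of formed glomeruli have left the cycle. The libraries record 3′ ends and were primed at poly(A) sequence, as this droplet assay is designed to do, so the levels below are those of captured mRNA. What share of each gene's mRNA was captured was not tested.

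A cell was kept if its barcode held at least 2000 UMIs (unique molecular identifiers, 1 per captured molecule) and at most 10% of them from mitochondrial genes. Library 1 kept 6220 cells with a median of 11987.5 UMIs and library 2 kept 5149 with a median of 12307, and 6 barcodes occurred in both. Types were gated from lists of marker genes, and 86.6% and 87.6% of cells received a type. Leaving aside the erythroid list, each type held more UMIs of its own list than of any other except the cells gated on the neural list, where 2 of 5 markers were seen in over 10% of cells and Sox10 in none, so these cells are not given a type name. Cells were split by Mki67 and Top2a, genes of the proliferation antigen and of the topoisomerase that untangles replicated DNA, into those with at least 1 UMI of both (Mki67+ Top2a+), of only 1, or of neither. The Mki67+ Top2a+ cells were deeper, with medians of 22465.5 and 20931 UMIs against 9559 and 10147 in cells with neither. As doublets, a preset number of cells with the highest Scrublet scores was marked, 310 in library 1 and 212 in library 2. Scrublet's own threshold gave 71 and 32. The marked cells made up 9.24% and 7.92% of the Mki67+ Top2a+ cells against 3.11% and 2.44% of cells with neither. Rbpj itself stood at 27.7 and 25.9 CPM (UMIs of the gene scaled to the usual common library total) in the stroma and at 61.9 and 57.8 CPM in nephron progenitors, and counts of 3′ ends do not show whether an internal exon is deleted.

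The histone genes took 276465 UMIs in library 1 and 283500 in library 2, which was 0.219% and 0.293% of all UMIs. Most of these UMIs lay in few cells: the 10% of cells with the most histone UMIs held 70.0% and 69.3% of them. The Mki67+ Top2a+ cells were 23.2% and 23.8% of the cells, held 47.4% and 43.4% of all UMIs, and held 81.0% and 82.7% of the histone UMIs. Their summed histone level was 3751 CPM in library 1 and 5573 CPM in library 2. Cells with 1 of the genes stood at 946 and 1114 CPM and cells with neither at 717 and 804 CPM. A histone share of at least 1% of a cell's UMIs was seen in 356 (24.7%) and 421 (34.4%) of the Mki67+ Top2a+ cells and in 1 cell with neither gene in each library. Within the Mki67+ Top2a+ state the cells were unequal, with a median of 21.0 and 34.6 histone UMIs per 10000 and a 90th percentile of 175 and 216.

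The state difference was present in each of the 9 types that had at least 20 cells of both states in both libraries, and its size differed between them. The summed level rose 20.04 ± 2.65 fold (SD, n = 2 libraries) in the stroma, 9.53 ± 1.84 fold in macrophages, 8.42 ± 2.46 fold in endothelial cells and 5.53 ± 1.26 fold in the ureteric epithelium. It was 5.14 ± 0.609 fold in the early nephron, 4.35 ± 1.92 fold in the proximal tubule, 3.94 ± 1.07 fold in the distal tubule, 3.93 ± 0.405 fold in nephron progenitors and 3.60 ± 0.806 fold in the loop of Henle. These folds describe sums over all 69 features with no filter and carry no test. Stroma lay above every other type in both libraries, with 18.2 and 21.9 fold, and the 6 epithelial and progenitor types lay between 2.99 and 6.42 fold, where neighbours in the order did not differ beyond the spread between libraries. With cells thinned to 4600 UMIs and type and state set again, these 6 types lay between 4.65 and 10.9 fold, the stroma at 22.3 and 22.7, endothelial cells at 11.8 and 13.1 and macrophages at 12.1 and 12.3. Nephron progenitors then stood at 6.19 and 6.92 fold and the loop of Henle at 7.42 and 7.92, so the order among the 6 types was another one, while the stroma was still above the other 8. Depth and the cells of each state changed together here, with 107 and 79 Mki67+ Top2a+ nephron progenitors against 221 and 180 before. Thinning left fewer than 20 Mki67+ Top2a+ cells in 1 library each of the distal tubule (17), the ureteric epithelium (19) and macrophages (18). Without the leading 3 genes, Hist1h1b, Hist1h2ap and Hist1h1e, the stroma still stood at 11.8 and 13.3 fold and nephron progenitors at 2.39 and 2.51 fold.

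**Figure D1:**
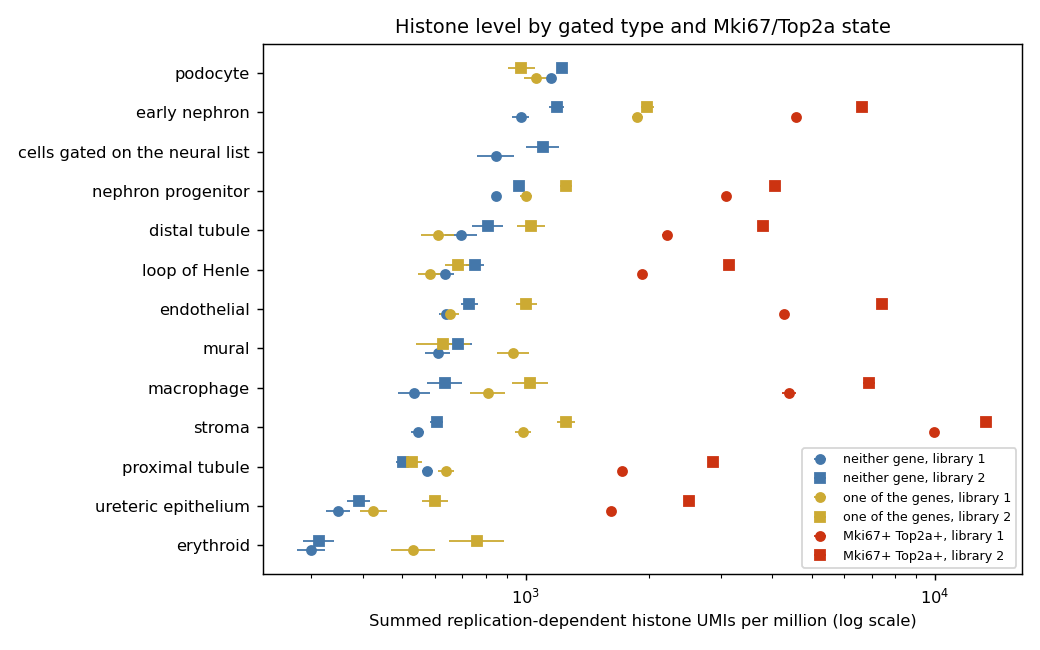
Summed histone level in CPM (log scale) in each gated type, by Mki67 and Top2a state, for types with at least 20 cells of that state in both libraries; circles are library 1, squares are library 2, and bars are exact 95% Poisson intervals that cover counting error only. The Mki67+ Top2a+ cells lie to the right in all 9 types, furthest in the stroma at 9909 and 13309.

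Of the 69 features, 65 had at least 1 UMI in the kept cells, and 54 passed the filter on low counts and were tested. The 15 others had at most 0.847 CPM. Hist2h2aa2, Hist1h2bq, Hist1h2br and Hist1h2ba had 0 UMIs in the kept cells of both libraries. A floor of 3 counts is 0.0238 CPM in library 1 and 0.0310 CPM in library 2, for counting error only. It does not bound the mRNA of a gene whose reads cannot be told from those of a near-identical copy. Hist1h2ba had 1 UMI in library 1 among barcodes with fewer than 100 UMIs. A gene could pass the filter through its level in a single state, so the tested genes are not a random part of the family. UMIs were summed per library, type and state, and edgeR's quasi-likelihood test with the library as a block took the mean over 9 types of the difference within a type. Between Mki67+ Top2a+ cells and cells with neither gene, 51 of 54 tested histone genes changed, 50 higher and 1 lower, against 32.7% of all genes tested (15.7% higher and 17.0% lower). The median log2 difference was 2.62 over the histone genes and -0.03 over all 14513 genes. All 51 moved the same way in both libraries.

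Linker histones bind the DNA between nucleosomes, and all 5 tested H1 genes rose. Hist1h1b, the H1 gene with the most UMIs, stood at 37.4 and 45.5 CPM in cells with neither gene (library 1 and library 2) and at 1062 and 1406 CPM in Mki67+ Top2a+ cells, a log2 difference of 4.98 ± 0.09 (SE, edgeR adjusted p = 3.74e-40). Hist1h1a went from 9.68 and 9.80 to 78.9 and 116 CPM, a log2 difference of 3.64 ± 0.11 (edgeR adjusted p = 7.33e-32). The other 3 rose less. Hist1h1d went from 14.3 and 18.0 to 73.2 and 111 CPM (log2 2.41 ± 0.09), and Hist1h1e from 174 and 199 to 470 and 676 CPM (log2 1.44 ± 0.06). Hist1h1c moved least, from 55.5 and 55.4 to 119 and 162 CPM (log2 1.06 ± 0.09, edgeR adjusted p = 2.06e-14). In each of the 5 genes both libraries of one state lay above both of the other. The log2 difference thus ran from 1.06 to 4.98 among the linker genes of the same cells, and in cells with neither gene Hist1h1e and Hist1h1c held more UMIs than Hist1h1b.

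H2A forms the nucleosome's outer dimers with H2B. All 14 tested H2A genes changed, 13 of them higher. Hist1h2ap, the H2A gene with the most UMIs, stood at 19.5 and 39.7 CPM in cells with neither gene and at 647 and 1467 CPM in Mki67+ Top2a+ cells (log2 5.24 ± 0.09, edgeR adjusted p = 1.03e-41). Hist1h2ae went from 9.32 and 14.3 to 186 and 294 CPM (log2 4.41 ± 0.09). Hist1h2af had 2 and 5 UMIs in cells with neither gene and 279 and 249 in Mki67+ Top2a+ cells (log2 5.73 ± 0.43), Hist1h2an had 5 and 4 against 271 and 109 (log2 4.65 ± 0.39), and Hist1h2ab had 58 and 15 against 1398 and 493 (log2 4.40 ± 0.22). These large differences rest on few UMIs in the lower state. Hist3h2a went the other way: 32.0 and 27.8 CPM with neither gene and 21.97 and 20.2 CPM with both, a log2 difference of -0.51 ± 0.08 (edgeR adjusted p = 3.04e-07). It was not called lower with cells thinned to 4600 UMIs or with at most 5% mitochondrial UMIs, where every called histone gene was higher. Mouse H2A genes of the Hist1 cluster are near-identical copies of each other, so how reads were divided among them, Hist1h2ap included, is uncertain.

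Among H2B genes 13 of 15 tested rose and 2 did not pass the test. Hist1h2bm went from 1.78 and 1.45 to 24.8 and 20.7 CPM (log2 4.81 ± 0.20), and Hist1h2bn from 11 and 3 UMIs to 422 and 241 (log2 4.94 ± 0.34). The 2 H2B genes with the most UMIs were the 2 that were not called. Hist3h2ba had 58.2 and 81.5 CPM with neither gene and 61.7 and 73.0 CPM with both (log2 0.27 ± 0.12, edgeR adjusted p = 0.0919), and Hist1h2bc had 66.3 and 41.4 against 47.8 and 39.0 CPM (log2 0.04 ± 0.11, edgeR adjusted p = 0.930). Their states overlapped between libraries for Hist1h2bc, and for Hist3h2ba the libraries moved in opposite directions in these sums. Hist3h2ba passed with no filter on low counts (edgeR adjusted p = 0.0263) and with a stricter type gate (edgeR adjusted p = 0.0454), at log2 0.30 in both. Hist2h2be rose little, by log2 0.85 ± 0.31 (edgeR adjusted p = 0.0292).

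H3 and H4 form the tetramer at the nucleosome's core. All but Hist2h3c1 of the 10 tested H3 genes rose. Hist1h3b had the largest log2 difference of any histone gene, 5.97 ± 0.23, from 0.356 and 0.542 CPM to 16.8 and 34.9 CPM (edgeR adjusted p = 2.24e-24). Hist1h3c went from 1.91 and 2.75 to 57.1 and 75.0 CPM (log2 4.65 ± 0.14), and Hist2h3c1, with under 2 CPM in either state, did not pass (log2 1.21 ± 0.51, edgeR adjusted p = 0.0644). All 10 tested H4 genes rose, over a narrower range of 1.02 to 2.64. Hist1h4d went from 39.6 and 45.3 to 142 and 200 CPM (log2 1.72 ± 0.06), and Hist1h4h from 35.0 and 49.5 to 94.1 and 168 CPM (log2 1.41 ± 0.06). Hist4h4, the only member of its locus, rose by log2 1.02 ± 0.19 (edgeR adjusted p = 2.85e-05). By class the median log2 difference was 2.41 for H1, 3.20 for H2A, 3.03 for H2B, 3.11 for H3 and 1.78 for H4.

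**Figure D2:**
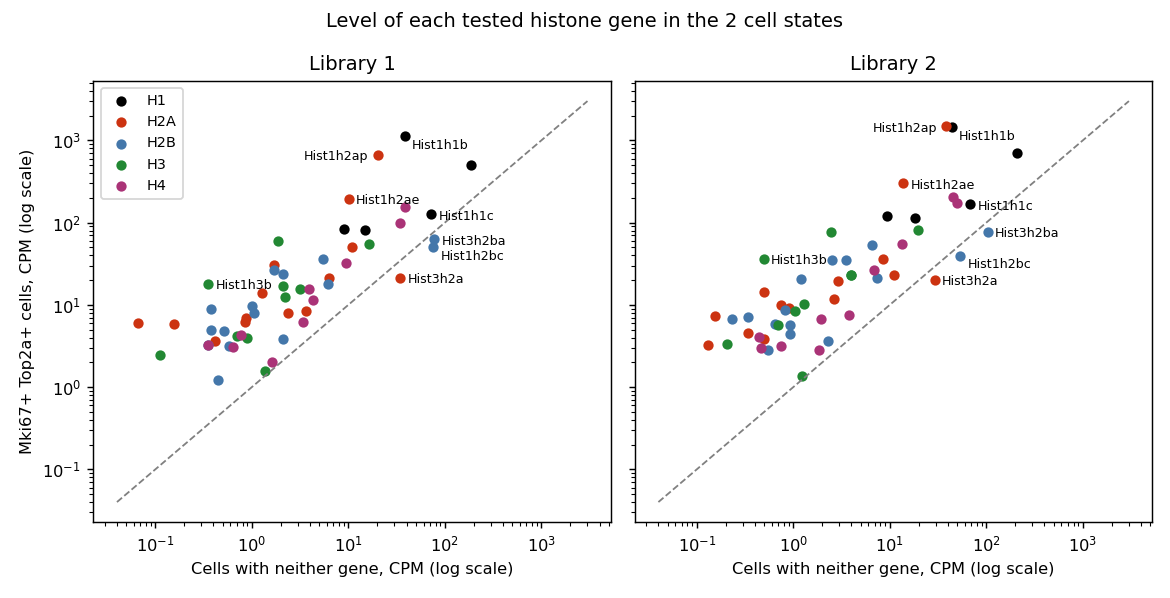
CPM of each of the 54 tested histone genes in cells with neither gene (horizontal, log scale) and in Mki67+ Top2a+ cells (vertical, log scale) over all kept cells, 1 panel per library, coloured by histone class; the dashed line marks equal levels. Hist3h2a, Hist3h2ba and Hist1h2bc lie below the line in both panels and the other genes above it; these cells include podocytes, which the test over 9 types did not.

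The genes lie in separate clusters of the mouse genome (build GRCm38, mm10), by RefSeq's annotation, in which 65 of the features were matched by symbol. There were 52 on chromosome 13 between 21715711 and 23934913, 9 on chromosome 3 between 96219885 and 96269155, 2 on chromosome 11 between 58948911 and 58955192 and 1 on chromosome 6 between 136803993 and 136804431. Hist1h2al lay apart from the others of chromosome 13, between 51200084 and 51203066, where RefSeq annotates a transcribed pseudogene, H2af-ps2; it is counted here by its symbol among the H2A features of the Hist1 group. In the Hist1 group 41 of 42 tested genes were called, all higher in Mki67+ Top2a+ cells, with a median log2 difference of 3.12. In the Hist2 group 8 of 9 tested were called, all higher, with a median of 1.91. The pair on chromosome 11, Hist3h2a and Hist3h2ba, held the gene that fell and 1 of the 3 that were not called. The fall was not called when cells were thinned to 4600 UMIs or with at most 5% mitochondrial UMIs. Levels were uneven: 3 genes, Hist1h1b, Hist1h2ap and Hist1h1e, gave 56.5% and 60.6% of all histone UMIs, and the leading 10 gave 81.1% and 83.5%. Those 10 were, with CPM over all kept cells of library 1 and library 2, Hist1h1b (569 and 668), Hist1h2ap (333 and 681), Hist1h1e (337 and 424), Hist1h2ae (99.9 and 140), Hist1h1c (97.5 and 112), Hist1h4d (94.2 and 117), Hist1h4h (66.0 and 104), Hist3h2ba (68.7 and 87.6), Hist1h2bc (64.4 and 47.6) and Hist1h1d (48.5 and 62.7). These are counts of 3′ ends and were not divided by transcript length.

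The make-up of the histone UMIs differed between states. H2A gave 13.0% and 13.6% of the histone UMIs in cells with neither gene and 27.9% and 35.0% in Mki67+ Top2a+ cells. H2B went from 24.5% and 23.1% to 7.10% and 5.91%, and H4 from 13.7% and 15.5% to 8.87% and 8.84%. H1 gave 44.7% and 43.4% against 51.1% and 45.4%, and H3 gave 4.12% and 4.42% against 5.11% and 4.85%. The H1 shares of the Mki67+ Top2a+ cells differed about as much between libraries as from the other state. These shares carry no test, and the mix of types differed between the states. Within the stroma H2B went from 12.7% and 11.1% to 5.47% and 4.90% and H2A from 13.6% and 13.0% to 23.6% and 32.6%. Within nephron progenitors H2B went from 22.6% and 25.5% to 9.02% and 7.88% and H2A from 15.4% and 15.2% to 27.1% and 34.5%. The H2B level itself rose, from 176 and 185 CPM to 266 and 329 CPM, so its smaller share stands beside a larger rise of the other classes.

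**Figure D3:**
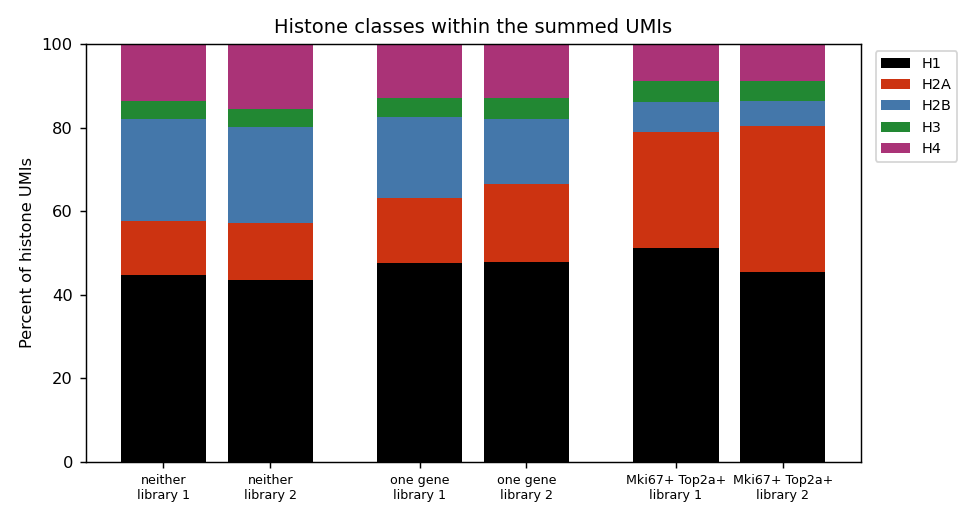
Percent of histone UMIs that belong to each histone class, stacked from 0 to 100, for cells with neither gene, with 1 of the genes and with both, in library 1 and library 2. The H2A part widens from 13.0% and 13.6% to 27.9% and 35.0%, and the H2B part narrows from 24.5% and 23.1% to 7.10% and 5.91%.

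The stroma, the lineage in which Foxd1cre acts, was compared with the nephron progenitors in each state. In Mki67+ Top2a+ cells the summed histone level was 9909 and 13309 CPM in the stroma and 3091 and 4059 CPM in nephron progenitors. In cells with neither gene the order was reversed, with 546 and 607 CPM in the stroma and 849 and 963 CPM in nephron progenitors. The stromal Mki67+ Top2a+ cells were shallower (medians of 13563 and 12480 UMIs against 30391 and 27375). They also held more UMIs of a list of 12 mitotic genes, 43.9 and 40.1 per 10000 against 24.7 and 19.6, and of a list of 13 S-phase genes, 10.3 and 11.7 against 6.76 and 7.41. The part of these differences in the histone levels was not tested by a fit. With every cell thinned to 4600 UMIs and type and state set again, the stroma stood at 13182 and 14320 CPM and nephron progenitors at 5754 and 7182 CPM.

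In the Mki67+ Top2a+ state 49 of 54 tested histone genes differed between stroma and nephron progenitors, 47 higher in the stroma and 2 lower, against 45.1% of all genes tested (24.2% higher and 20.9% lower). Thinned to 4600 UMIs, 26 of 40 differed, against 20.3% of all genes. The median log2 difference was 1.80 over the histone genes, and close to 0 over all genes. Hist1h1b stood at 3305 and 3521 CPM in the stroma and at 877 and 1020 CPM in nephron progenitors (log2 1.87 ± 0.19, edgeR adjusted p = 1.49e-11). Hist1h1e stood at 1458 and 1871 against 392 and 464 CPM (log2 1.97 ± 0.15). Both stromal values lay above both progenitor values for each. The largest rises were in genes with fewer UMIs. Hist2h2ab had 36.9 and 50.9 against 7.34 and 5.66 CPM (log2 2.71 ± 0.28), Hist1h2bn 35.8 and 26.7 against 6.33 and 3.82 CPM (log2 2.63 ± 0.29), and Hist1h4b 9.92 and 12.3 against 1.47 and 2.46 CPM (log2 2.52 ± 0.49). The less abundant of the 2 Hist2h2bb features had 14 and 21 UMIs against 8 and 16 (log2 2.34 ± 0.62, edgeR adjusted p = 0.00215). The genes that were lower in the stroma were the chromosome 11 pair. Only 1 histone gene was called lower when cells were thinned to 4600 UMIs, and only 1 with at most 5% mitochondrial UMIs. Hist3h2ba stood at 13.5 and 15.9 CPM against 104 and 133 CPM (log2 -2.98 ± 0.22, edgeR adjusted p = 4.35e-16), and Hist3h2a at 17.0 and 13.9 against 25.3 and 23.1 CPM (log2 -0.63 ± 0.17).

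In cells with neither gene 15 of 54 histone genes differed, all lower in the stroma, against 46.5% of all genes tested (24.8% higher and 21.7% lower), a share of 27.8% that lies below this background. Hist3h2ba again stood furthest apart, at 8.28 and 7.11 CPM in the stroma against 137 and 186 CPM in nephron progenitors (log2 -4.38 ± 0.21, edgeR adjusted p = 6.39e-23). At least 1 Hist3h2ba UMI was found in 6.90% and 5.96% of stromal cells with neither gene and in 78.2% and 83.2% of such nephron progenitors. In erythroid cells with neither gene, which make few mRNAs beside those of globin, it was 5.84% and 5.47%, so the stromal share was near that of this background. Median depths were 8731 and 8664 UMIs in the stroma, 13691 and 13252 in nephron progenitors and 4083 and 4306 in erythroid cells. Thinned to 4600 UMIs the 3 shares were 3.37% and 3.43%, 45.3% and 52.1%, and 5% and 6.08%. For these and all later thinned shares of cells, type and state were kept from full depth. Hist2h2be had 0.368 and 1.08 against 2.57 and 2.59 CPM (log2 -1.83 ± 0.56, edgeR adjusted p = 0.00601). Hist1h2bg, Hist1h4j and Hist1h2bb also passed, on 1, 2 and 5 stromal UMIs in both libraries together. With cells thinned to 4600 UMIs, Hist1h2bb changed sign and was no longer called (log2 0.14 against -2.08, edgeR adjusted p = 0.932). Their nephron progenitor levels stood at 16.7 times (95% interval 2.73 to 684, counting error only) those of the stroma for Hist1h2bg and 6.33 times (1.53 to 56.0) for Hist1h4j. Genes with more UMIs were lower too: Hist1h2ap had 10.9 and 22.8 against 40.6 and 63.0 CPM (log2 -1.67 ± 0.27), and Hist1h3e 8.65 and 12.1 against 27.2 and 29.2 CPM (log2 -1.46 ± 0.18).

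**Figure D4:**
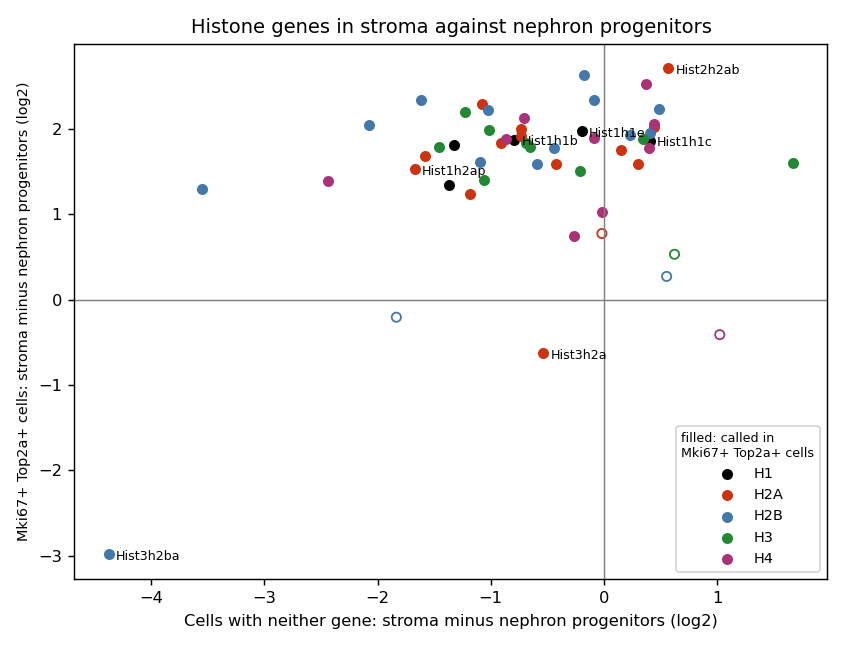
Log2 difference between stroma and nephron progenitors for each of the 54 tested histone genes in cells with neither gene (horizontal) and in Mki67+ Top2a+ cells (vertical), coloured by histone class, with filled points called in Mki67+ Top2a+ cells. Most genes lie in the upper part, around the median of 1.80, while Hist3h2ba lies at -4.38 and -2.98.

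The state difference itself was compared between the 2 types with an interaction contrast, which uses the same columns as both comparisons above. It passed for 29 of 54 histone genes, and all 29 had the larger difference in the stroma, against 3.70% of all genes tested (2.21% higher and 1.49% lower). By class these were 5 of 5 tested H1 genes, 9 of 14 H2A, 7 of 15 H2B, 4 of 10 H3 and 4 of 10 H4. The 5 largest were Hist1h2bg (log2 4.84 ± 1.04), Hist1h2bb (4.12 ± 0.67, and 1.19 and no longer called when thinned), Hist1h4j (3.83 ± 1.02), Hist1h3f (3.42 ± 0.44) and Hist1h2ac (3.37 ± 0.80), and all but Hist1h3f rested on at most 6 stromal UMIs with neither gene. Genes with more UMIs, named after their values were seen, gave log2 3.25 ± 0.21 for Hist1h3e (edgeR adjusted p = 6.07e-16), 3.19 ± 0.31 for Hist1h2ap, 2.74 ± 0.20 for Hist1h4h and 2.67 ± 0.30 for Hist1h1b. In the fit on cells thinned to 4600 UMIs the count was 12 of 40 tested, against 0.47% of all genes. With at most 5% mitochondrial UMIs it was 14 of 40 against 1.54%, and without cells over 50000 UMIs 18 of 51 against 1.59%, and every histone gene called in these 3 fits was higher in the stroma.

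Differences across all types at once were tested within each state. Among cells with neither gene 39 of 54 (72.2%) differed between any of 13 types, below the 93.2% of all genes tested, and among Mki67+ Top2a+ cells 51 of 54 (94.4%) differed between any of 9 types, near the 89.3% of all genes tested (edgeR quasi-likelihood F tests of all types at once). Thinned, the latter count was 32 of 40 against 50%, over fewer types. The distal tubule, the ureteric epithelium and macrophages were left out of it, with under 20 such cells in a library. The summed level in cells with neither gene was highest in podocytes, with 1155 and 1226 CPM, followed by the early nephron with 972 and 1192 CPM, cells gated on the neural list with 845 and 1101 CPM and nephron progenitors with 849 and 963 CPM. Neighbours in this order overlapped between libraries. With cells thinned to 4600 UMIs and type and state set again, podocytes stood at 1241 and 1392 CPM, below the early nephron at 1304 and 1436 CPM in both libraries. The early nephron cells with neither gene then numbered 173 and 168, against 113 and 105 before, so depth and the cells in the group changed together and their parts cannot be told apart. Without thinning the lowest levels were in erythroid cells, with 300 and 312 CPM, and in the ureteric epithelium, with 348 and 391 CPM.

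Podocytes held a high level without the proliferation genes, so they were compared with nephron progenitors among cells with neither gene. These progenitor columns also served in the comparison with the stroma. Of 54 histone genes 31 differed, 10 higher and 21 lower in podocytes, against 54.5% of all genes tested (29.4% higher and 25.1% lower). Thinned to 4600 UMIs, 18 of 40 differed, against 51.4% of all genes. The count is near that background, and the genes split by cluster: of 25 called in the Hist1 group 21 were lower, while the 4 called in the Hist2 group and the chromosome 11 pair were all higher. Hist1h2bc, an H2B gene that was not called between states over 9 types, stood at 164 and 142 CPM in podocytes and at 23.2 and 22.8 CPM in nephron progenitors (log2 2.63 ± 0.22, edgeR adjusted p = 3.27e-14). At least 1 of its UMIs was found in 68.0% and 63.9% of podocytes, against 22.04% and 20.6% of nephron progenitors and 13.9% and 21.0% of erythroid cells; thinned to 4600 UMIs these were 51.0% and 46.8%, 8.87% and 8.08%, and 17.5% and 26.4%. After thinning the nephron progenitor share lay below that in erythroid cells. Hist1h1c, the H1 gene with the smallest state difference, stood at 175 and 143 against 47.2 and 47.9 CPM (log2 1.67 ± 0.21, edgeR adjusted p = 2.59e-09). Hist2h4 had 43 and 50 UMIs in podocytes and 5 and 2 in nephron progenitors (log2 4.18 ± 0.62, edgeR adjusted p = 1.66e-07), Hist2h3c1 rose by log2 2.99 ± 0.56 and Hist1h2al by 2.15 ± 0.24.

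Of the 10 genes with the largest state differences, 5 were called lower in podocytes and 5 were not called. Hist1h1b stood at 16.8 and 13.5 against 69.4 and 67.0 CPM (log2 -2.23 ± 0.28, edgeR adjusted p = 3.69e-09), and Hist1h2ap at 11.7 and 16.5 against 40.6 and 63.0 CPM (log2 -1.96 ± 0.28). At least 1 Hist1h1b UMI was found in 14.0% and 11.3% of podocytes, and in 5.87% and 6.31% after thinning, where erythroid cells gave 6% and 5.41%. Hist1h2bp had 0 UMIs in podocytes and 3 and 15 in nephron progenitors, which is at least 3.83-fold lower in podocytes against a floor of 3 counts over the group. Hist1h4k and Hist1h2bf had 0 in podocytes and 5 in each library of nephron progenitors, at least 2.13-fold lower. Hist1h2ab had 1 podocyte UMI against 27, which puts nephron progenitors at 17.2 times the podocyte level (95% interval 2.84 to 705, counting error only). It was no longer called when cells were thinned (log2 -2.11, edgeR adjusted p = 0.107). Podocytes also had lower levels of all 13 S-phase genes, with log2 differences of -4.11 ± 0.38 for Dtl and -3.40 ± 0.19 for Mcm6.

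The S-phase genes were then used to split each state, within the same cells as above. The list held Pcna, the sliding clamp of DNA polymerases, the replicative helicase genes Mcm2 to Mcm6, Gins2, Cdc45, Clspn, Dtl, Uhrf1, Rrm2 and Ccne2, and the 25% of a library's cells with the most of these UMIs per 10000 were called S-gene-high. In Mki67+ Top2a+ cells the summed histone level was 5027 and 7592 CPM in S-gene-high cells and 1923 and 2988 CPM in the others. In cells with neither gene it was 779 and 948 CPM in S-gene-high cells and 687 and 765 CPM in the others. These sums pool types whose mix differed between the parts, and the difference was not the same in each type. Nephron progenitors with neither gene stood at 821 and 889 CPM in S-gene-high cells and at 861 and 981 CPM in the others, lower with S-phase genes high in both libraries. The stroma went the other way, with 646 and 700 against 519 and 586 CPM. Over the 5 types with enough Mki67+ Top2a+ cells, 46 of 54 histone genes changed, 44 higher and 2 lower, against 13.6% of all genes tested (8.65% higher, and 713 of the 14267 genes lower), with a median log2 difference of 0.97 over the histone genes. Thinned to 4600 UMIs the count was 20 of 37 (54.1%), against 3.52% of all genes, and with at most 5% mitochondrial UMIs 25 of 42 (59.5%), against 4.79%. Hist1h1a stood at 119 and 178 CPM in S-gene-high and at 36.4 and 50.6 CPM in the other cells (log2 1.79 ± 0.10, edgeR adjusted p = 3.58e-19). Hist1h2ap stood at 918 and 2100 against 351 and 841 CPM (log2 1.47 ± 0.09), Hist1h1b at 1570 and 2077 against 608 and 799 CPM (log2 1.42 ± 0.08), and Hist1h2ae at 270 and 434 against 106 and 160 CPM (log2 1.48 ± 0.07). For each of these 4 genes both S-gene-high values lay above both of the others, by the least for Hist1h2ap, with 918 against 841 CPM. Hist1h3g, Hist1h2bn, Hist1h2ac, Hist1h4a, Hist1h2ak and Hist1h4k rose by 1.40 to 1.59 on the log2 scale, of which Hist1h4a and Hist1h2ak were no longer called when thinned (edgeR adjusted p = 0.0677 and 0.601).

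Hist1h2bc (log2 -0.63 ± 0.12) and Hist3h2a (log2 -0.44 ± 0.10) were the 2 that fell in Mki67+ Top2a+ cells. Thinned to 4600 UMIs 1 histone gene was called lower there, and with at most 5% mitochondrial UMIs 0 were. Hist1h2bc and Hist3h2a were also the 2 that fell with the S-phase genes in cells with neither gene. There, over 4 types, 8 of 54 histone genes changed, 6 higher and 2 lower, against 8.52% of all genes tested (3.99% higher and 4.53% lower). Hist1h1b stood at 93.7 and 124 CPM in S-gene-high cells and at 40.6 and 46.2 CPM in the others (log2 1.30 ± 0.17, edgeR adjusted p = 2.34e-07). Hist1h3c had 21 and 29 UMIs against 29 and 31 (log2 1.42 ± 0.37, edgeR adjusted p = 0.00844), and Hist1h4a, Hist1h3a, Hist1h2ap and Hist1h4d rose by 1.06, 0.92, 0.85 and 0.48 on the log2 scale. Hist3h2a fell by 0.95 on the log2 scale and Hist1h2bc by 0.90. With at most 5% mitochondrial UMIs per cell, which kept 46.5% and 37.0% of the cells, the edgeR quasi-likelihood test called 0 of 42 histone genes (1 at an unadjusted p under 0.05) and 1.63% of all genes, and DESeq2 on all kept cells called 9. Thinned to 4600 UMIs, 3 of 37 were called against 4.09% of all genes, and Hist1h3c, Hist1h4a, Hist1h3a, Hist1h4d and Hist3h2a no longer passed. Without the replicate block 4 of 54 (7.41%) were called, 2 higher and 2 lower, against 8.58% of all genes.

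The histone level among Mki67+ Top2a+ cells was also set beside a list of mitotic genes. The gated cells of each library were split into tertiles by S-phase genes and by the list of 12 mitotic genes, which holds Ccnb1, a cyclin of mitotic entry, and Plk1, a mitotic kinase. Along the S-phase tertiles the level was 1511 and 2493, then 3234 and 5382, then 6264 and 9436 CPM, a rise at each step in both libraries. Along the mitotic tertiles it was 2013 and 3083, then 4312 and 7590, then 4886 and 6249 CPM, so the last step went up in library 1 and down in library 2. Cells in the lowest tertile of both lists had 644 and 852 CPM of histone UMIs, beside 717 and 804 CPM in all cells with neither gene. Cells in the highest tertile of S-phase genes had 4229 and 6339 CPM with the fewest mitotic UMIs, 7757 and 13672 CPM in the middle tertile and 7344 and 10952 CPM in the highest, the last of which held 48 and 21 cells. In the lowest tertile of S-phase genes the level went from 644 and 852 to 1551 and 2055 and to 2744 and 4480 CPM along the mitotic tertiles. These are descriptions with no test, and the tertiles differed in depth, with medians of 38901.5 and 28065 UMIs per cell where both lists were lowest and 19284 and 19638 where S-phase genes were highest and mitotic genes lowest.

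**Figure D5:**
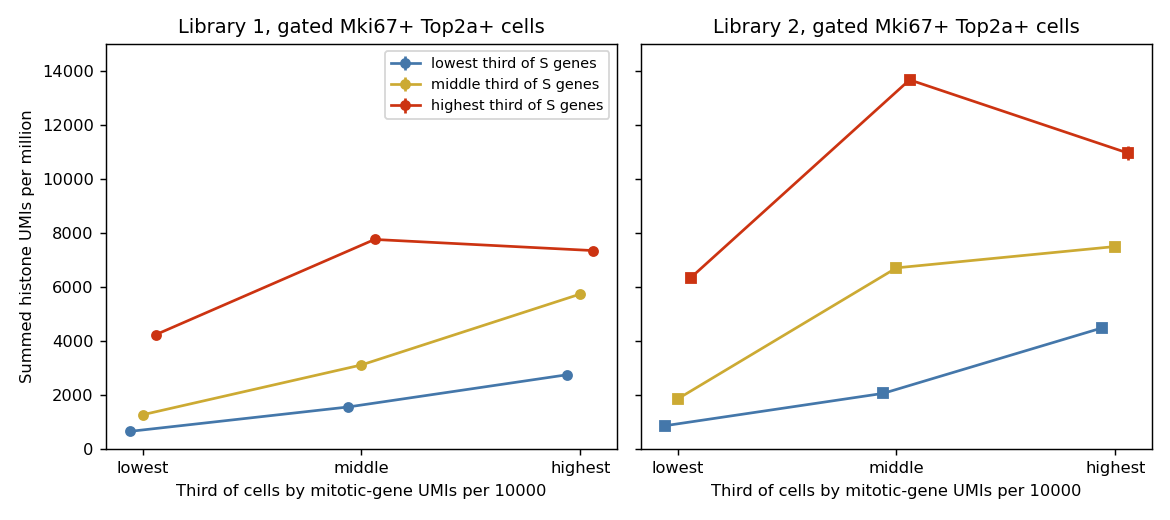
Summed histone level in CPM in gated Mki67+ Top2a+ cells, by tertile of cells for mitotic-gene UMIs (horizontal) and for S-gene UMIs (lines), 1 panel per library; bars are exact 95% Poisson intervals, mostly smaller than the points. The level is lowest where both lists are lowest, at 644 and 852, and highest in the highest tertile of S genes and the middle tertile of mitotic genes, at 7757 and 13672.

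Genes that serve histone supply were described from lists of their own. In Mki67+ Top2a+ cells against cells with neither gene, 8 of the 10 tested genes of histone mRNA synthesis and processing changed, 7 of them higher, beside the 32.7% of all genes called in this contrast (15.7% higher). Slbp, which binds the stem-loop, rose by log2 0.58 ± 0.06, Eri1, an exonuclease that trims it, by 0.63 ± 0.06, Lsm11, a part of the U7 particle that cuts the 3′ end, by 0.47 ± 0.09, and Casp8ap2, which is needed for histone transcription, by 0.41 ± 0.05. Their list median was 0.26, against 2.62 for the histone genes. Of the 15 histone chaperones 12 changed, all higher, led by Asf1b (3.75 ± 0.15), Chaf1a (1.84 ± 0.11) and Chaf1b (1.37 ± 0.10), which hand new H3 and H4 to replicating DNA, and Nasp (0.99 ± 0.06). Of the 11 histones listed here as replication-independent 10 changed, 9 higher, led by Cenpa (4.20 ± 0.07), the H3 variant of centromeres, and H2afx (2.85 ± 0.07), with a list median of 0.61. Whether each gene of that list is expressed independently of replication was not tested. All 13 S-phase genes were higher, with a median of 1.55, among them Rrm2 (3.39 ± 0.10) and Clspn (3.32 ± 0.12), as were all 12 mitotic genes, with a median of 5.19, among them Nusap1 (6.40 ± 0.10) and Hmmr (6.22 ± 0.13).

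With S-phase genes high among Mki67+ Top2a+ cells, 7 of 10 processing genes and 12 of 15 chaperones rose, beside 13.6% of all genes called (8.65% higher), with Slbp at log2 1.21 ± 0.06, Casp8ap2 at 1.07 ± 0.07 and Chaf1b at 2.04 ± 0.09, while all 12 mitotic genes fell, Cdc20 by 1.13 and Ccnb2 by 0.97 on the log2 scale. Of the histones listed as replication-independent 3 of 11 changed there. Cenpa fell by 0.97 on the log2 scale, while H2afy rose by 0.31 and H2afy2 by 0.29. In cells with neither gene 5 of 10 processing genes rose with the S-phase genes, with Casp8ap2 at 0.87 ± 0.09 and Slbp at 0.85 ± 0.08, and 8 of 15 chaperones, with Chaf1a at 2.08 ± 0.18, beside 8.52% of all genes called (3.99% higher). Between stroma and nephron progenitors in the Mki67+ Top2a+ state, 12 of 12 mitotic and 9 of 13 S-phase genes were higher in the stroma, with medians of 1.11 and 0.70 against 1.80 for the histone genes, beside 45.1% of all genes called (24.2% higher). Npat, an activator of histone transcription (0.97 ± 0.13), Eri1 (0.97 ± 0.12) and Slbp (0.86 ± 0.13) were higher there as well, and Lsm10, another part of the U7 particle, was lower (-0.44 ± 0.16). Of the 10 processing genes 4 were higher and 2 lower. The state difference was larger in the stroma for Eri1 (1.17 ± 0.17), Slbp (0.90 ± 0.19) and Npat (0.71 ± 0.19), 3 of 10 processing genes, and for 6 of 13 S-phase and 3 of 12 mitotic genes, beside 3.70% of all genes called (2.21% higher; edgeR quasi-likelihood test throughout).

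Across the 34 type-and-state columns the genes whose log2 level was most like the summed histone level were Fbxo5, an inhibitor of the anaphase-promoting complex, Sgol1, Prc1, Sgol2a, Ttk, Cenpq, Ndc80, Cenpe, Esco2 and Smc4. The lower of their 2 per-library Pearson r values ran from 0.890 to 0.869 among 9320 genes. The columns share libraries and the split by Mki67 and Top2a, so these values are a description.

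The 2 libraries differed in single histone genes more than in most genes. Among features with at least 200 UMIs, 5 of 54 histone genes differed over 2-fold between library 1 and library 2, against 0.897% of all 14053 such features. Library 2 held 2.04 times the Hist1h2ap level of library 1, 2.64 times that of Hist1h2al and 3.96 times that of Hist1h2bl, and it held 0.355 times that of Hist2h2ac and 0.426 times that of Hist1h2ab. The direction was the same in every type with at least 20 UMIs of the gene, which was 11 to 14 types. Over the 54 genes library 2 lay higher by a median of log2 0.31. The library block in the tests takes up such shifts, and the reads of near-identical copies leave the values of single genes uncertain.

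RNA free in the suspension also carried histone UMIs. In barcodes with fewer than 100 UMIs the summed level was 1300 CPM (95% exact Poisson interval 1262 to 1338) in library 1 and 1434 CPM (1395 to 1474) in library 2, which was above the level in cells with neither gene, 717 and 804 CPM, and below that in Mki67+ Top2a+ cells. Hist1h1b stood there at 272 and 258 CPM and Hist1h2ap at 197 and 338 CPM, above their levels in cells with neither gene. The part of free RNA in the low levels of those cells was not tested. Hist1h1b UMIs were found in 19.9% and 17.1% of stromal cells with neither gene and in 83.1% and 90.5% of Mki67+ Top2a+ stromal cells. Thinned to 4600 UMIs these were 12.1% and 11.1%, and 75.4% and 84.9%, beside 6% and 5.41% in erythroid cells, where thinning left out 245 of 445 and 181 of 329 cells.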

How the data were processed

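Both libraries were made by droplet 3′ single-cell RNA-seq of newborn mouse kidney. The deposited matrices hold UMI counts per gene and barcode as the authors made them with Cell Ranger against mm10, version 6.0.1 per the submitters' processing notes and version 4 per the file headers. From these counts, barcodes with at least 2000 UMIs and at most 10% mitochondrial UMIs were kept. Doublets were scored with Scrublet (scanpy 1.11.5). The highest-scoring cells, at a preset 0.8% per 1000 cells of the library, were marked and removed only in an alternative. A type was given where the mean z-score over a marker list reached 0.5 and led the second list by 0.25. UMIs were summed per library, type and state, with at least 20 cells in both libraries, and tested with edgeR 4.0.16 (R 4.3.3, TMM, filterByExpr, quasi-likelihood, the library as a block). Benjamini-Hochberg adjustment ran over all 14513 genes tested (14267 in the split by S-phase genes), with a threshold of 0.05. SE is the absolute log2 difference over the root of F. The library block pairs columns made from the same library. The main fit had 68 columns and 33 residual degrees of freedom, and the split by S-phase genes 60 and 29. All these columns came from the same 2 libraries. The procedure was tested on simulated data for the contrast between Mki67+ Top2a+ cells and cells with neither gene, on 13256 genes: it recovered 100 of 100 genes changed by log2 1 and 87 of 100 changed by 0.5, with 17 false calls among 13056. The simulated columns shared the same gene rates, without differences between types or libraries, and all genes shared a common dispersion. Only genes above a minimum level were changed. These rates therefore need not hold for the real columns or for genes with few UMIs.

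Genes were named by rule: the 10 members (5 between types) whose called change was largest and had 1 sign in either library, the 10 with the highest CPM, up to 4 called genes of each other list, and members with 0 UMIs. Others were named after their values were seen: Hist1h3e, Hist2h3c1 and Hist4h4 throughout, and the remaining members where a comparison prints them beyond its 5 or 10. The members and all lists were chosen with earlier results of these data known. Alternatives changed the normalization, the test (DESeq2 1.42.0), the filter, the block, the depth limits, the mitochondrial limit, doublets, the gate, thinning to 4600 UMIs with type and state set again, the definition of states and the libraries. Thinned shares of cells with a UMI of a gene kept the type and state of full depth. Intervals and floors cover counting error only.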

Additional observations from a re-analysis of the deposited data

Results flagged for a closer look

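The difference between states was larger in the stroma than in nephron progenitors by an interaction contrast for 29 of 54 histone genes, against 3.70% of all genes tested (edgeR quasi-likelihood test). The difference of log2 differences was 4.84 for Hist1h2bg, 4.12 for Hist1h2bb, 3.83 for Hist1h4j, 3.42 for Hist1h3f and 3.37 for Hist1h2ac, each in the same direction in both libraries. In stromal cells with neither gene these 5 genes had 1, 5, 2, 20 and 6 UMIs over both libraries, so the values rest on few counts, and for Hist1h2bb the difference between the types in those cells was -2.08 and became 0.14 when cells were thinned to 4600 UMIs, where its interaction was 1.19 and not called (edgeR adjusted p = 0.922).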

How the results depend on the processing

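With cells thinned to 4600 UMIs, the called histone genes, each beside the share of all genes called in that fit, were 32 of 40 (50%) between types and 26 of 40 (20.3%) between stroma and nephron progenitors in Mki67+ Top2a+ cells, 18 of 40 (51.4%) for podocytes and 12 of 40 (0.47%) for the interaction. The thinned count between types left out the distal tubule, the ureteric epithelium and macrophages, which had under 20 Mki67+ Top2a+ cells in a library. The split by S-phase genes gave 3 of 37 (4.09%) with neither and 20 of 37 (3.52%) with both genes when thinned. With at most 5% mitochondrial UMIs, they were 9 of 40 (32.3%) between stroma and nephron progenitors in cells with neither gene, 20 of 40 (46.7%) for podocytes, 14 of 40 (1.54%) for the interaction, and 0 of 42 (1.63%) and 25 of 42 (4.79%) for the split by S-phase genes (edgeR; beside the 0, 1 gene had an unadjusted p under 0.05, and DESeq2 on all kept cells called 9). Without cells over 50000 UMIs the interaction count was 18 of 51 (1.59%). Without the replicate block the split by S-phase genes in cells with neither gene gave 4 of 54 (8.58%), and every other count stayed within 1.5 times. The mean log2 ratio of the summed level, 2.58, was 3.14 without cells over 50000 UMIs, 3.21 thinned and 2.14 with either gene defining the state, and 2.35 to 2.81 leaving out 1 library. Each mean was over the types with at least 20 cells of both states in both libraries under that setting. The thinned mean thus left out the distal tubule, the ureteric epithelium and macrophages, so the sets of types were not the same. The cause of these shifts was not tested. Hist1h2bc between states, not called, changed sign thinned (-0.38) and with either gene (-0.086), and ran from -0.036 to 0.19 leaving out 1 library. Hist1h2bb between stroma and nephron progenitors with neither gene became 0.14 thinned. Of 560 tested alternatives over 55 results for named genes, 518 kept direction and side of the threshold, 37 were no longer past it, 2 newly passed and 3 changed sign. With 2 libraries, leaving 1 out gives values with no test.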
